A study of Homo sapiens with 4 samples.

Results

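The 9 genes described here are a list of lung and gut endoderm lineage factors, with PITX1 added: the lung factor NKX2-1 with its neighbour SFTA3 and the surfactant gene SFTPA1, the pan-endoderm factors FOXA1, FOXA2 and GATA6, the gut and liver factors CDX2 and HNF4A, and the homeodomain factor PITX1. They were taken by name from a fixed list, which was chosen with earlier results of these data known. All 9 have a row among the 28277 genes of the deposited table. RNA was sequenced from NCI-H520, an established line of human lung squamous cell carcinoma, labelled WT. Hx1R8 was applied at 10 µM during 12 h before RNA was taken for the 2 Hx1R8 libraries, and ultrapure water during the same time for the 2 Vehicle libraries. Both groups are the same line in the same serum-containing medium. The sources used here do not give what Hx1R8 is made of or whether the 2 libraries of a group came from separate cultures, so the p-values reflect library-to-library spread that may be technical. The libraries are bulk RNA, so fewer cells that express a gene and less RNA per cell cannot be told apart.

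FOXA1 and FOXA2 are pioneer factors that open closed chromatin in early endoderm, where GATA6 acts beside them. NKX2-1 then specifies lung and thyroid and drives surfactant genes in alveolar cells, whereas CDX2 and HNF4A set intestinal and hepatic identity. In lung cancer NKX2-1 is a marker of adenocarcinoma, and squamous tumours usually carry the basal factors SOX2 and TP63 in its place. PITX1 is best known from hindlimb and pituitary development.

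In these cells 2 of the 9 genes were abundant, PITX1 and FOXA2, FOXA1 and NKX2-1 stood at middle levels, and HNF4A had no read in any library. No member passed the test between Hx1R8 and Vehicle. The lowest fitted value was that of SFTPA1, at 0.530 of its Vehicle level on 90 reads in all, and the highest that of CDX2, on 85 reads.

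Levels between genes were compared as CPM, the usual read count scaled to library size, divided by the kilobases of exon, since a longer transcript gathers more reads. On this scale PITX1 stood first, between 53.6 and 59.7 CPM per kilobase over the 4 libraries, above 91.9% of the 14482 tested genes. FOXA2 followed at 45.6 to 49.5, above 90.1% of tested genes, and its range did not meet that of PITX1. FOXA1 (5.14 to 6.07) and NKX2-1 (4.31 to 5.42) came next, with overlapping ranges, so their order is within their spread. GATA6 was at 1.16 to 1.35 CPM per kilobase, clear of its neighbours in the order. SFTPA1 (0.375 to 0.799) and CDX2 (0.277 to 0.415) overlapped. SFTA3 reached at most 0.0579 and HNF4A had 0 reads, so these 2 could not be ranked against each other.

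**Figure D1:**
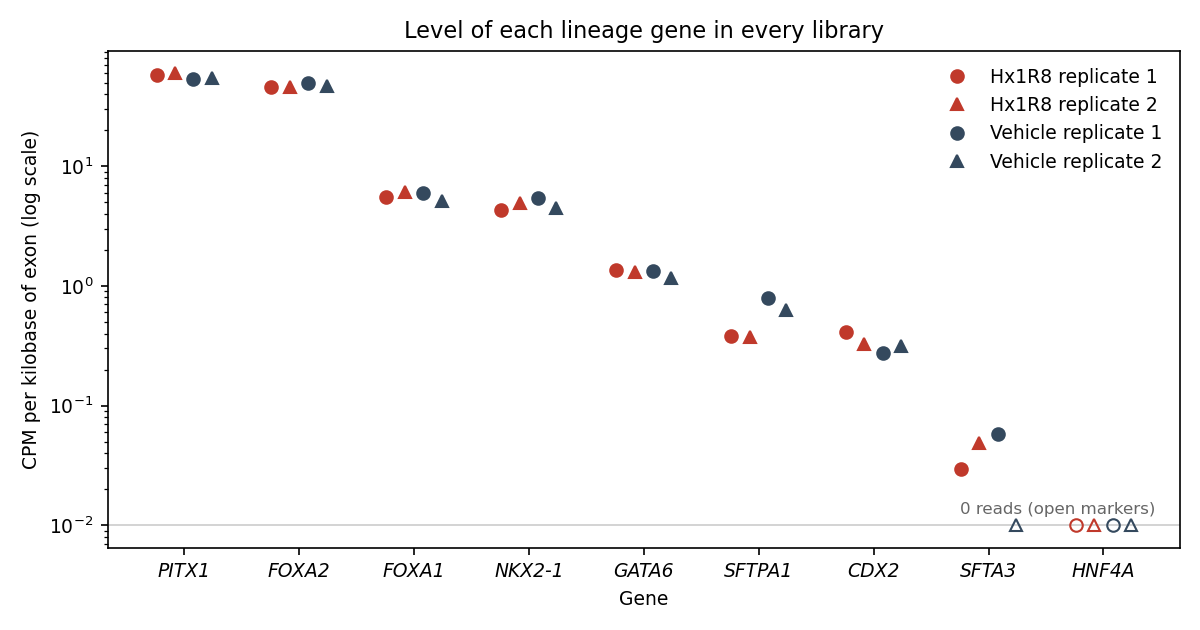
CPM per kilobase of exon (log axis) of the 9 lineage genes in each of the 2 Hx1R8 and 2 Vehicle libraries, in order of their mean, with open markers for 0 reads. PITX1 and FOXA2 lie between 45.6 and 59.7 in every library, FOXA1 and NKX2-1 overlap, and HNF4A has no read.

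The start region that NKX2-1 shares with SFTA3 is shown first, because NKX2-1 had 831 reads in all and SFTA3 had 5, followed by the windows of SFTPA1 and CDX2, the members with the lowest and the highest fitted change. Each window runs from 250 bases before to 50 bases after an annotated RefSeq start (GRCh38.p14), written on the strand of the gene. Capitals mark matches, on either strand, to 5 words searched: TGTTTAC for FOXA proteins, CAAGTG for NKX2-1, AGATAA for GATA factors, ATTGTT for SOX factors and TATAAA for the TATA box.
NKX2-1 and SFTA3, chr14:36519507-36519806, minus strand: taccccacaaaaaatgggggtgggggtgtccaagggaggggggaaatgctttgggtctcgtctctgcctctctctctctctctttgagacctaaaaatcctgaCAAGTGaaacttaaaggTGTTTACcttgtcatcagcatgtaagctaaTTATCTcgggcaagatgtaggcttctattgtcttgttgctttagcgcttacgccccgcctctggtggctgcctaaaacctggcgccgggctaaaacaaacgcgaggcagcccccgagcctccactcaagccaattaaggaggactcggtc
SFTPA1, chr10:79610689-79610988, plus strand: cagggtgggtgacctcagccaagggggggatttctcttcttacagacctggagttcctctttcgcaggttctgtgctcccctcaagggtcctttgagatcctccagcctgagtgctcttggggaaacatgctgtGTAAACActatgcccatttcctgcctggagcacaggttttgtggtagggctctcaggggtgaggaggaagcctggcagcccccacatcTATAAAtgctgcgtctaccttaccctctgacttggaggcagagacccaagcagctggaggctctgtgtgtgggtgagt
CDX2, chr13:27969266-27969565, minus strand: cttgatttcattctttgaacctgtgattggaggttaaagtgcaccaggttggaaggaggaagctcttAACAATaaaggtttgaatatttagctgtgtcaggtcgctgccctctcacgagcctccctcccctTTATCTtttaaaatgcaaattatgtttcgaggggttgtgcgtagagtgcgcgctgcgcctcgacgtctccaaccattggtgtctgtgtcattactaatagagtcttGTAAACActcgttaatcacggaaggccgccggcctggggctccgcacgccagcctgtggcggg

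The FOXA word occurred in these 3 windows and in none of the 7 other windows of the members. Of 34943 distinct RefSeq promoter windows 3.42% held it. In the NKX2-1 and SFTA3 window it began at base -130 from the start, with an NKX2-1 word at -147 and a GATA word at -100. In the SFTPA1 window it lay on the other strand at -116, with a TATA word at -28. The CDX2 window held it on the other strand at -13, with a GATA word at -119 and a SOX word at -183. No matches overlapped. Among all windows the NKX2-1 word was in 11.5%, the GATA word in 10.4%, the SOX word in 10.1% and the TATA word in 11.6%. These are matches of letters and not measured binding. The second NKX2-1 window (chr14:36520183-36520482), the windows of GATA6 and PITX1, the second SFTA3 window and the downstream HNF4A window held none of the 5 words. FOXA1 had an NKX2-1 word and the upstream HNF4A window a GATA word, and FOXA2 has no entry.

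Of the 9 members, 7 passed the filter on low counts and were tested with edgeR's quasi-likelihood test over all genes. None passed the adjusted threshold of 0.05, where 0.0207% of all 14482 tested genes did (0.0138% higher and 0.00691% lower in Hx1R8), and DESeq2 and limma-voom also called 0. At an unadjusted p under 0.05 there were 2 members, SFTPA1 and PITX1, with edgeR and with limma-voom and 0 with DESeq2, while 3.39% of all tested genes had such a p with edgeR. The fitted log2 fold changes were above 0 for 4 members and below 0 for 3, with a median of 0.06, against -0.0018 over all tested genes. For 5 of the 7 the whole 95% interval was under a change of 1.5-fold in either direction, as it was for 81.4% of all tested genes. Both Hx1R8 libraries lay on one side of both Vehicle libraries in 4 of the 7, against 29.8% of all tested genes.

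**Figure D2:**
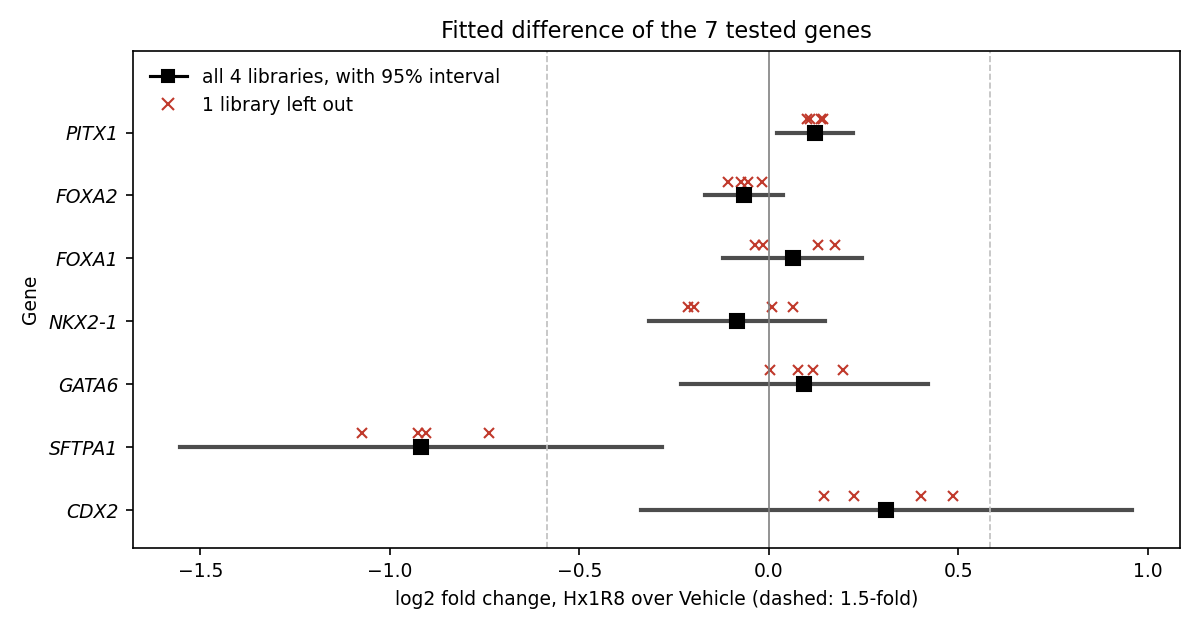
Log2 fold change, Hx1R8 over Vehicle, of the 7 tested lineage genes (squares) with 95% intervals, and the values with 1 library left out (crosses); dashed lines mark 1.5-fold. SFTPA1 and CDX2 have the widest intervals, and the crosses of NKX2-1 and FOXA1 fall on both sides of 0.

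Among the pioneer factors FOXA2 was the dominant paralogue. FOXA2 (chromosome 20, 22581000 to 22585490, minus strand, 3 exon blocks) had 2075 and 2555 reads in the Hx1R8 libraries and 2291 and 2124 reads in the Vehicle libraries. These are 121 and 122 CPM in Hx1R8 and 131 and 123 CPM in Vehicle. Both Hx1R8 libraries were below both Vehicle libraries, with less than 1 CPM between the nearest pair, an arrangement found in 15.2% of tested genes. Hx1R8 over Vehicle gave -0.07 on the log2 scale (SE 0.05, adjusted p = 0.9999), and folds from 0.890 to 1.03 lay within the 95% interval. Leaving out single libraries gave -0.018 (without Vehicle replicate 1) to -0.11 (without Vehicle replicate 2, unadjusted p = 0.019 and adjusted p = 0.730 by edgeR).

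FOXA1 (chromosome 14, 37589552 to 37595249, minus strand, 2 exon blocks), the paralogue with the broader role in hormone-responsive tissues, was at 19.3 and 21.3 CPM in Hx1R8 and 20.9 and 18.0 CPM in Vehicle, and the groups overlapped. Its log2 fold change was 0.06 (SE 0.09, adjusted p = 0.9999), with a fold interval from 0.920 to 1.19. The sign turned without Hx1R8 replicate 2 (-0.015) and without Vehicle replicate 2 (-0.037). Per kilobase, FOXA2 exceeded FOXA1 8.30-fold and 7.61-fold in Hx1R8 and 8.31-fold and 9.04-fold in Vehicle. The third paralogue FOXA3 averaged 0.950 ± 0.276 CPM in Hx1R8 and 0.891 ± 0.129 CPM in Vehicle (SD, n = 2 each).

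LINC00261, a long noncoding RNA that lies 2358 bases from FOXA2 on the same strand, had 167 and 167 CPM in Hx1R8 and 168 and 162 CPM in Vehicle (log2 fold change 0.02, SE 0.05, adjusted p = 0.9999). Per kilobase its level was 0.745 and 0.736 of that of FOXA2 in Hx1R8 and 0.689 and 0.712 in Vehicle. FOXA2 shares no exon base with any other listed gene, so the 2 counts are separate.

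GATA6 (chromosome 18, 22169437 to 22202528, plus strand) was low, with 88 and 104 reads in Hx1R8 and 88 and 76 reads in Vehicle. These are 5.11 and 4.96 CPM in Hx1R8 and 5.03 and 4.39 CPM in Vehicle, with overlapping groups. On the log2 scale the difference was 0.09 (SE 0.16, adjusted p = 0.9999), with a fold interval from 0.851 to 1.34. Without Vehicle replicate 2 the value was 0.0025. The divergent transcript GATA6-AS1, which lies 469 bases away, had 2 and 2 reads in Hx1R8 and 1 and 1 in Vehicle. GATA6 shares no exon base with any other gene of the table. In GENCODE v29, 10.7% of the 75-base windows of GATA6 transcripts also occur, on either strand, in GATA6-AS1 or AC091588.3, so reads there are uncertain. The paralogue GATA4 had 4 and 1 reads in Hx1R8 and 1 and 0 in Vehicle.

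The lung factor NKX2-1 was present, and its neighbour SFTA3 was nearly without reads. NKX2-1 (chromosome 14, 36516399 to 36520232, minus strand, 3 exon blocks) had 176 and 247 reads in Hx1R8 and 225 and 183 reads in Vehicle. These are 10.2 and 11.8 CPM in Hx1R8 and 12.9 and 10.6 CPM in Vehicle, and the groups overlapped. On the log2 scale the difference was -0.08 (SE 0.12, adjusted p = 0.9999), with a fold interval from 0.803 to 1.11, and the sign turned without Hx1R8 replicate 1 (0.0093) and without Vehicle replicate 1 (0.065).

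SFTA3, a surfactant-associated gene typed as protein coding in GENCODE v29 and as a long noncoding RNA in RefSeq, begins inside NKX2-1 on the same strand (chromosome 14, 36473289 to 36519556). It had 1 and 2 reads in Hx1R8 and 2 and 0 reads in Vehicle. All are under the 3 counts taken as the floor (0.143 to 0.174 CPM per library, counting error only), so no fold was computed. Of its 1973 exon bases, 89 are also NKX2-1 exon, and 95.5% are shared with no other gene of the table. Of the 75-base windows of its GENCODE v29 transcripts, 23.8% also occur in AL132857.1, so reads there are uncertain. The antisense NKX2-1-AS1 overlaps 279 exon bases of NKX2-1 and had 17 and 11 reads in Hx1R8 and 14 and 13 reads in Vehicle. No source used here gives the strand setting of the counting, so reads of the antisense RNA cannot be told apart from those of NKX2-1 in the shared bases, and 88.2% of NKX2-1 exon bases are unshared.

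SFTPA1 (chromosome 10, 79610939 to 79615455, plus strand), one of a pair of genes for surfactant protein A, had 15 and 18 reads in Hx1R8 and 32 and 25 reads in Vehicle. These are 0.871 and 0.859 CPM in Hx1R8 and 1.83 and 1.45 CPM in Vehicle. Both Hx1R8 libraries were below both Vehicle libraries, as in 15.2% of tested genes. On the log2 scale the difference was -0.92 (SE 0.31, unadjusted p = 0.0059, adjusted p = 0.9999), with a fold interval from 0.341 to 0.823, and leaving out single libraries gave -1.07 to -0.74. The partner SFTPA2 had 0 and 3 reads in Hx1R8 and 0 and 1 reads in Vehicle. Of the 75-base windows of SFTPA1 transcripts in GENCODE v29, 13.7% also occur in SFTPA2, so reads there are uncertain between the 2 genes. Summed over both genes the reads were 15 and 21 in Hx1R8 and 32 and 26 in Vehicle, and the groups did not overlap in CPM. Nearly all of these reads are those of SFTPA1, so the sum is no separate check.

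**Figure D3:**
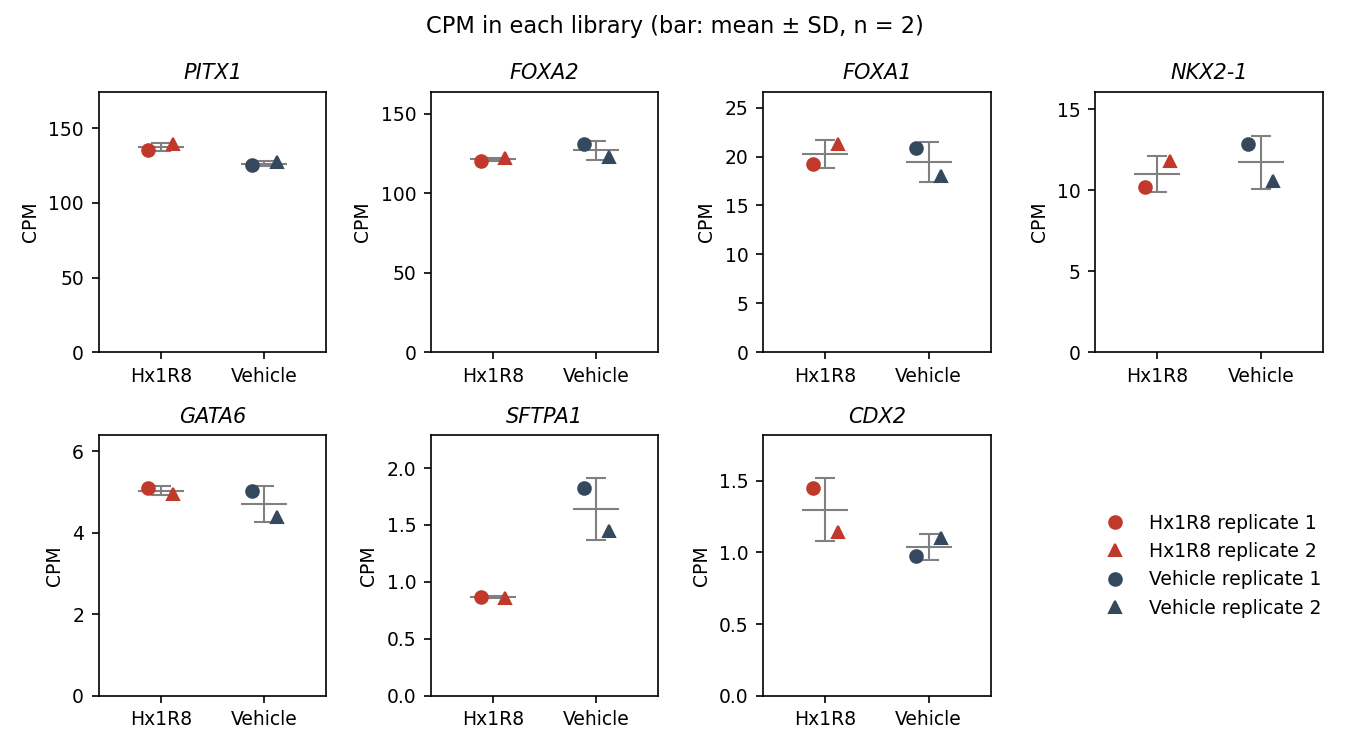
CPM of the 7 tested lineage genes in the Hx1R8 and Vehicle libraries (points) with mean and SD (n = 2 each), each panel on its own axis from 0. The groups are apart for PITX1, FOXA2, SFTPA1 and CDX2 and overlap for FOXA1, NKX2-1 and GATA6.

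Other lung epithelial genes were checked as a list of 22. Of these, 13 had at most 3 reads in every library and 5 had none, among them SFTPC and NAPSA, a surfactant protein and its processing protease, and the club cell gene SCGB1A1. SFTPB, the surfactant protein required for breathing, had 2 and 1 reads in Hx1R8 and 1 and 1 in Vehicle. Against this, ABCA3, which loads surfactant lipid into lamellar bodies, was at 130 ± 2.62 CPM in Hx1R8 and 130 ± 4.69 CPM in Vehicle (SD, n = 2 each). LPCAT1, an enzyme that makes surfactant phospholipid, was at 201 ± 5.47 CPM in Hx1R8 and 199 ± 1.48 CPM in Vehicle, and the factor ETV5 at 295 ± 5.42 CPM in Hx1R8 and 297 ± 15.1 CPM in Vehicle (SD, n = 2 each). LAMP3, a lamellar body membrane protein, had 7.50 ± 0.333 CPM in Hx1R8 and 7.96 ± 0.269 CPM in Vehicle (SD, n = 2 each). ABCA3, LPCAT1 and ETV5 are also expressed outside the lung. By edgeR, DESeq2 and limma-voom 0 of the 8 tested genes were called and 0 had an unadjusted p under 0.05, with a median log2 fold change of -0.05.

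The gut and liver factors were low or without reads. CDX2 (chromosome 13, 27960918 to 27969368, minus strand) had 25 and 24 reads in Hx1R8 and 17 and 19 reads in Vehicle. These are 1.45 and 1.15 CPM in Hx1R8 and 0.972 and 1.10 CPM in Vehicle. Both Hx1R8 libraries were above both Vehicle libraries, as in 14.7% of tested genes. Its log2 fold change was 0.31 (SE 0.32, adjusted p = 0.9999) with a fold interval from 0.791 to 1.94, and leaving out single libraries gave 0.15 to 0.49. At this depth a rise of 1.5-fold in CDX2 could not be told from no change.

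HNF4A (chromosome 20, 44355699 to 44434595, plus strand, 13 exon blocks) had 0 reads in all 4 libraries over 7346 exon bases, which allows a level of up to 0.174 CPM in Hx1R8 replicate 1 and less in the others. Its antisense gene HNF4A-AS1 also had 0 reads. The paralogue HNF4G was at 6.89 ± 0.0464 CPM in Hx1R8 and 6.98 ± 0.308 CPM in Vehicle (SD, n = 2 each). CDX1, the paralogue of CDX2, had 0 reads.

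Genes of gut and liver epithelium were also scarce. Of 22 gut genes 17 were under 1 CPM in every library, including the intestinal cadherin CDH17 and the mucin MUC2, both known as genes active in CDX2-positive intestine. KRT20, an intestinal keratin, was highest at 12.3 ± 0.515 CPM in Hx1R8 and 12.1 ± 1.20 CPM in Vehicle, followed by the adhesion protein CEACAM6 at 6.68 ± 0.332 CPM in Hx1R8 and 7.62 ± 0.266 CPM in Vehicle (SD, n = 2 each). Of 21 liver-type genes 19 were under 1 CPM in every library, with APOM at 4.12 ± 0.319 CPM in Hx1R8 and 4.60 ± 1.01 CPM in Vehicle and SERPINA1 at 2.38 ± 0.255 CPM in Hx1R8 and 2.59 ± 0.103 CPM in Vehicle (SD, n = 2 each). Of these lists 6 and 2 genes were tested, and edgeR, DESeq2 and limma-voom called 0 and gave 0 with an unadjusted p under 0.05. Median log2 fold changes were -0.09 for gut and -0.14 for liver-type genes.

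**Figure D4:**
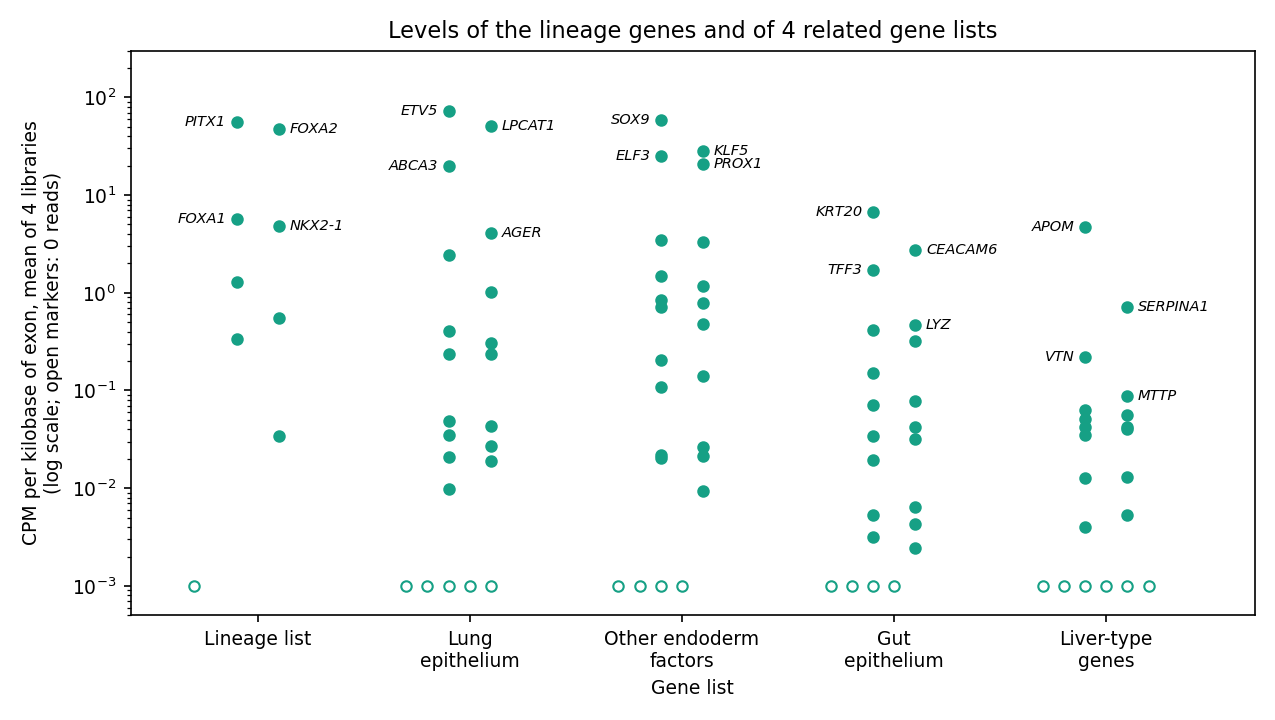
Mean CPM per kilobase of exon over the 4 libraries (log axis) for the lineage list and 4 related lists, each point a gene, open markers 0 reads, the 4 highest named. PITX1 and FOXA2 lie at 56.5 and 46.9, near SOX9 and LPCAT1, while no gut or liver-type gene reaches 10.

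PITX1 was the most abundant member, and its value in Hx1R8 did not pass the test against Vehicle. The gene (chromosome 5, 135027734 to 135034228, minus strand, 3 exon blocks) had 2332 and 2923 reads in Hx1R8 and 2192 and 2205 reads in Vehicle. These are 135 and 139 CPM in Hx1R8 and 125 and 127 CPM in Vehicle. Both Hx1R8 libraries were above both Vehicle libraries, as in 14.7% of tested genes. On the log2 scale the difference was 0.12 (SE 0.05, unadjusted p = 0.018, adjusted p = 0.9999), a fold of 1.09 with an interval from 1.02 to 1.17, and leaving out single libraries gave 0.10 to 0.14. The paralogue PITX3, a factor of lens and midbrain development, was at 0.476 ± 0.0660 CPM in Hx1R8 and 0.804 ± 0.0747 CPM in Vehicle (SD, n = 2 each). C5orf66, on the opposite strand and overlapping the span of PITX1, shares no exon base with it in the table and was at 16.6 ± 0.520 CPM in Hx1R8 and 16.4 ± 0.840 CPM in Vehicle (SD, n = 2 each). Of the 75-base windows of PITX1 transcripts 6.12% also occur in another annotated gene. Of the 7 tested neighbours and paralogues of the members, 3 had log2 fold changes above 0 and 4 below, with a median of -0.02, and edgeR, DESeq2 and limma-voom called 0, with 0 at an unadjusted p under 0.05.

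Per kilobase PITX1 was 1.27 and 1.29 times FOXA2 in Hx1R8 and 1.08 and 1.17 times FOXA2 in Vehicle. Both Hx1R8 libraries were above both Vehicle libraries for PITX1 and below them for FOXA2, so the groups of ratios could not overlap. The pair was chosen after its values were seen, so no test is given. Over the 4 libraries, the genes whose centred log2 CPM lay nearest to PITX1 among 3153 of similar level were SSU72, OSBP and RAB5B, at distances of 0.017, 0.022 and 0.022 log2 units. With 4 libraries and so many candidates, some genes lie this close in any case, so no link to PITX1 can be read from it.

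Of 24 other endoderm factors, 5 averaged 10 CPM or more, 12 were under 1 CPM in every library, and none passed the test. SOX9, a factor of distal lung progenitors and other epithelia, was at 229 ± 2.66 CPM in Hx1R8 and 231 ± 0.0732 CPM in Vehicle, and PROX1, a factor of liver and lymphatic vessels, at 178 ± 4.34 CPM in Hx1R8 and 178 ± 4.59 CPM in Vehicle (SD, n = 2 each). KLF5, an epithelial factor of gut and airway, had 101 ± 2.98 CPM in Hx1R8 and 97.6 ± 0.292 CPM in Vehicle, and the epithelial factor ELF3 had 80.1 ± 1.69 CPM in Hx1R8 and 80.2 ± 5.29 CPM in Vehicle (SD, n = 2 each). SOX17, CDX1 and NKX6-3 had no read in any library. Of the 24 genes 13 were tested, 3 with log2 fold changes above 0 and 10 below, median -0.02, and edgeR, DESeq2 and limma-voom called 0, with 0 at an unadjusted p under 0.05.

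Of the 10 squamous markers checked against the label, 4 were under 1 CPM in every library and 3 averaged 10 CPM or more. SOX2 averaged 510 ± 17.4 CPM in Hx1R8 and 528 ± 18.7 CPM in Vehicle and the keratin KRT6A 17.5 ± 0.529 CPM in Hx1R8 and 19.8 ± 0.121 CPM in Vehicle (SD, n = 2 each). DSC3, a desmosomal cadherin, averaged 7.57 ± 0.0489 CPM in Hx1R8 and 6.09 ± 0.0502 CPM in Vehicle and the basal keratin KRT5 1.54 ± 0.528 CPM in Hx1R8 and 1.67 ± 0.339 CPM in Vehicle (SD, n = 2 each). TRIM29 had 29.5 and 28.4 CPM in Hx1R8 and 27.7 and 31.3 CPM in Vehicle. The basal keratin KRT15 had 56 and 69 reads in Hx1R8 and 70 and 76 reads in Vehicle. The basal factor TP63 averaged 0.648 ± 0.0954 CPM in Hx1R8 and 0.431 ± 0.0442 CPM in Vehicle (SD, n = 2 each), SERPINB5 was also under 1 CPM in every library, and KRT14 and DSG3 had no read. None of 8 tested squamous markers was called by the 3 tools, with 2 (KRT6A and DSC3) at an unadjusted p under 0.05 by edgeR, 2 by limma-voom and 0 by DESeq2. The 8 neuroendocrine markers summed to 902 and 904 CPM in Hx1R8 and 900 and 904 CPM in Vehicle. Of markers of other cells, 7 of 8 for airway ciliated and secretory cells, 8 of 10 for fibroblasts and endothelium and 6 of 8 for immune cells were under 1 CPM in every library, with the pan-leukocyte PTPRC and the endothelial PECAM1 at 0 reads. The exceptions were TPPP3 for airway cells, COL1A1 and KDR for fibroblasts and endothelium, and CD14 and CD68 for immune cells. COL1A1 was the highest of them, at 7.74 ± 0.595 CPM in Hx1R8 and 8.19 ± 0.0544 CPM in Vehicle (SD, n = 2 each). Total counts were 17259403 and 20920857 in Hx1R8 and 17483349 and 17352323 in Vehicle, and the largest chi-square per gene between libraries, 2.95, was that of the 2 Vehicle libraries.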

How the data were processed

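The authors deposited raw read counts per gene for 4 libraries, with exon coordinates and a summed exon length, per the file headers. Per the submitters' processing notes, STAR 2.7.9 served for alignment, on hg38. Counting tool, gene annotation and strand setting: not given in the sources used here. A broken row over 2 lines, without reads, was left out.

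Counts were tested with edgeR 4.0.16 (R 4.3.3): TMM factors (0.998 to 1.00), filterByExpr, quasi-likelihood test, two-sided, Benjamini-Hochberg adjustment over 14482 genes, threshold 0.05. Intervals are 95% and come from the fit. CPM were scaled by the TMM factors and divided by exon bases on the primary chromosomes. The test was checked on simulated counts. Alternatives used DESeq2 1.42.0 and limma 3.58.1 (voom), other scalings and filters, robust dispersions, a replicate block and each library left out.

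All 9 members were named. Members and lists were chosen with earlier results of these data known. List genes named are up to 4 by mean CPM, paralogues and neighbours of members, and genes at or near 0 chosen after seeing their values; some listed genes are not reported here. G6PC1 and PITX1-AS1 were not matched by symbol, RefSeq giving PITX1-AS1 as the current name of C5orf66. Sequences are from RefSeq promoter windows, available for 8 of 9 members.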

Additional observations from a re-analysis of the deposited data

How the results depend on the processing

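No member was called under any of the 13 alternatives, and of 91 recomputed member values 87 kept their direction. The sign turned for NKX2-1 without Hx1R8 replicate 1 and without Vehicle replicate 1 (range -0.21 to 0.065, 0.0093 without Hx1R8 replicate 1) and for FOXA1 without Hx1R8 replicate 2 and without Vehicle replicate 2 (range -0.037 to 0.175, -0.015 with Hx1R8 replicate 2 out). The lowest adjusted p of a member was 0.319, for PITX1. Over all genes 2 were higher and 1 lower. DESeq2 and robust dispersions each gave 1 higher, and the cause was not tested. Leaving out 1 library gave 2 to 41 higher and 1 to 38 lower, where the single library left is taken to vary as the other group does. A replicate block gave 2 higher genes, 1 lower gene and 0 members called. Only the number links the samples: deviations of same-numbered libraries had a correlation of 0.032. Depth limits SFTPA1 and CDX2, on 90 and 85 reads, and leaves SFTA3 and HNF4A untested.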
